A study of Mus musculus with 8 samples.

Results

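The epidermal differentiation complex is a dense run of genes on mouse chromosome 3 that encode the proteins and calcium sensors of cornifying epithelium. Its members were taken as the protein-coding genes on chromosome 3 whose symbols begin with Lce, Sprr or S100a, together with Ivl, Lor, Flg, Flg2, Rptn, Crnn, Tchh, Tchhl1, Hrnr, Crct1, Lelp1 and Smcp. The annotation held 62 such genes between positions 90511034 and 93564643 (GRCm38), and 61 of them were among the 25466 genes of the deposited count table. Lelp1 was the member without a row. RNA-seq was performed on medullary thymic epithelial cells (mTECs) isolated by FACS from the thymus of wild-type BL6N6 mice aged 4 to 6 weeks. The sorted cells lacked CD45 and CDR1 and carried Epcam, and they were divided by surface Tspan8 and MHCII into 4 subsets with 2 biological replicates each: Tspan8negMHCIIlo, Tspan8negMHCIIhi, Tspan8posMHCIIhi and Tspan8posMHCIIlo. Tspan8 is a tissue-restricted antigen (TRA) and serves as an example of one, and MHCII marks the maturation state, although MHCIIlo mTECs include both immature cells and late cells that have passed through the MHCIIhi state.

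mTECs transcribe genes of many peripheral tissues so that developing T cells reactive to these products can be removed. Part of this transcription depends on the regulator Aire, and part belongs to mTECs that take on the programs of other epithelia, including keratinocyte-like cells. In the epidermis, involucrin, loricrin, small proline-rich (Sprr) and late cornified envelope (Lce) proteins are cross-linked by transglutaminases beneath the plasma membrane of dying keratinocytes. The fused-type S100 proteins, among them filaggrin and repetin, join an S100 calcium-binding domain to long repeats and either bundle keratin filaments or enter the envelope, while the short S100 proteins are calcium sensors with uses in many cell types.

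Library totals ranged from 1941518 to 7783841 counts, and 1 of the Tspan8posMHCIIlo libraries was the smallest and the other the largest. Values are given as CPM, counts scaled to the TMM-adjusted library size, and 3 counts correspond to between 0.385 and 1.65 CPM. Tspan8 transcript lay between 347.4 and 404.5 CPM in the Tspan8pos libraries and between 3.65 and 14.6 CPM in the Tspan8neg libraries. H2-Ab1, a chain of MHCII, was higher in both MHCIIhi subsets than in the MHCIIlo subset with the same Tspan8 label. Transcripts of the mTEC genes Epcam, Krt8 and Cldn4 were present in all 4 subsets, and Aire averaged 2567 CPM in Tspan8negMHCIIhi, 471.6 in Tspan8posMHCIIhi, 208.5 in Tspan8negMHCIIlo and 25.1 in Tspan8posMHCIIlo. A list of 6 thymocyte genes summed to 336.2 and 932.7 CPM in the Tspan8negMHCIIlo replicates and to between 62.8 and 196 CPM in the other libraries. In sorted bulk samples, fewer cells of a type and less RNA per cell cannot be told apart. The sources used here do not say if equally numbered libraries share mice, and p-values measure the spread between these pairs of libraries.

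Members of the complex took up 0.138% and 0.134% of all counts in the Tspan8negMHCIIlo libraries and 0.261% and 0.278% in the Tspan8negMHCIIhi libraries. In Tspan8posMHCIIhi they took up 0.908% and 0.857%, and in Tspan8posMHCIIlo 0.781% and 0.761%. Both Tspan8pos subsets thus lay above both Tspan8neg subsets without overlap. The fused-type S100 genes accounted for 0.481% and 0.457% of counts in Tspan8posMHCIIhi, most of it from Rptn (0.372% and 0.343%), against 0.0121% and 0.0196% in Tspan8negMHCIIlo. Short S100 genes varied least, from 0.0804% to 0.174% over the 8 libraries, and Lce genes never exceeded 0.00727%.

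**Figure D1:**
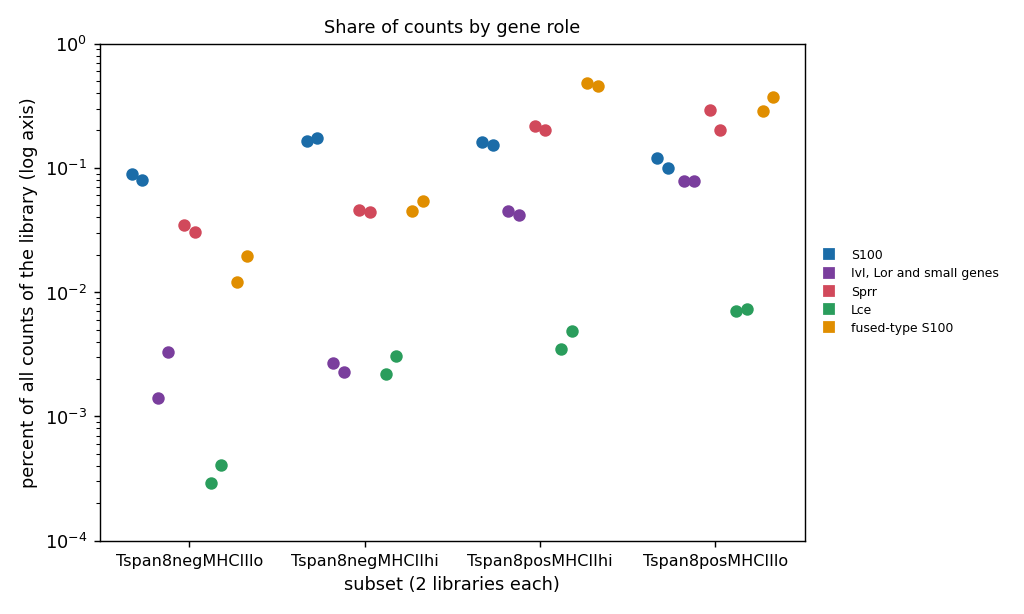
Percent of all counts in each library (log axis) taken up by each role group of the complex, with 2 points per subset for its 2 libraries. Fused-type S100 genes rise from 0.0121% and 0.0196% in Tspan8negMHCIIlo to 0.481% and 0.457% in Tspan8posMHCIIhi, while the short S100 genes stay between 0.0804% and 0.174%.

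By mean CPM, 26 of the 61 members were highest in Tspan8posMHCIIlo, 21 in Tspan8posMHCIIhi, 13 in Tspan8negMHCIIhi and 1, S100a10, in Tspan8negMHCIIlo. The highest subset did not overlap any other library for 11, 14, 8 and 1 of these. Of the 50 members that passed a filter on low counts, 23, 16, 10 and 1 were highest in these subsets, against 24.2%, 17.4%, 27.9% and 30.6% of all 17006 genes that passed it. Among them, 10, 9, 6 and 1 stood apart, against 12.8%, 8.13%, 18.7% and 17.8% of all genes. The count in Tspan8negMHCIIhi was therefore not above the background. All 7 fused-type S100 genes and 14 of the 15 Sprr genes peaked in a Tspan8pos subset. Of the 14 short S100 genes, 7 peaked in Tspan8negMHCIIhi, the subset with the most Aire transcript, and 6 of these 7 stood clear of every other library. A mean of at least 10 CPM over the 8 libraries was reached by 30 members. Of the 31 below it, 28 stayed under 10 CPM in every library, including 20 of the 21 Lce genes.

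**Figure D2:**
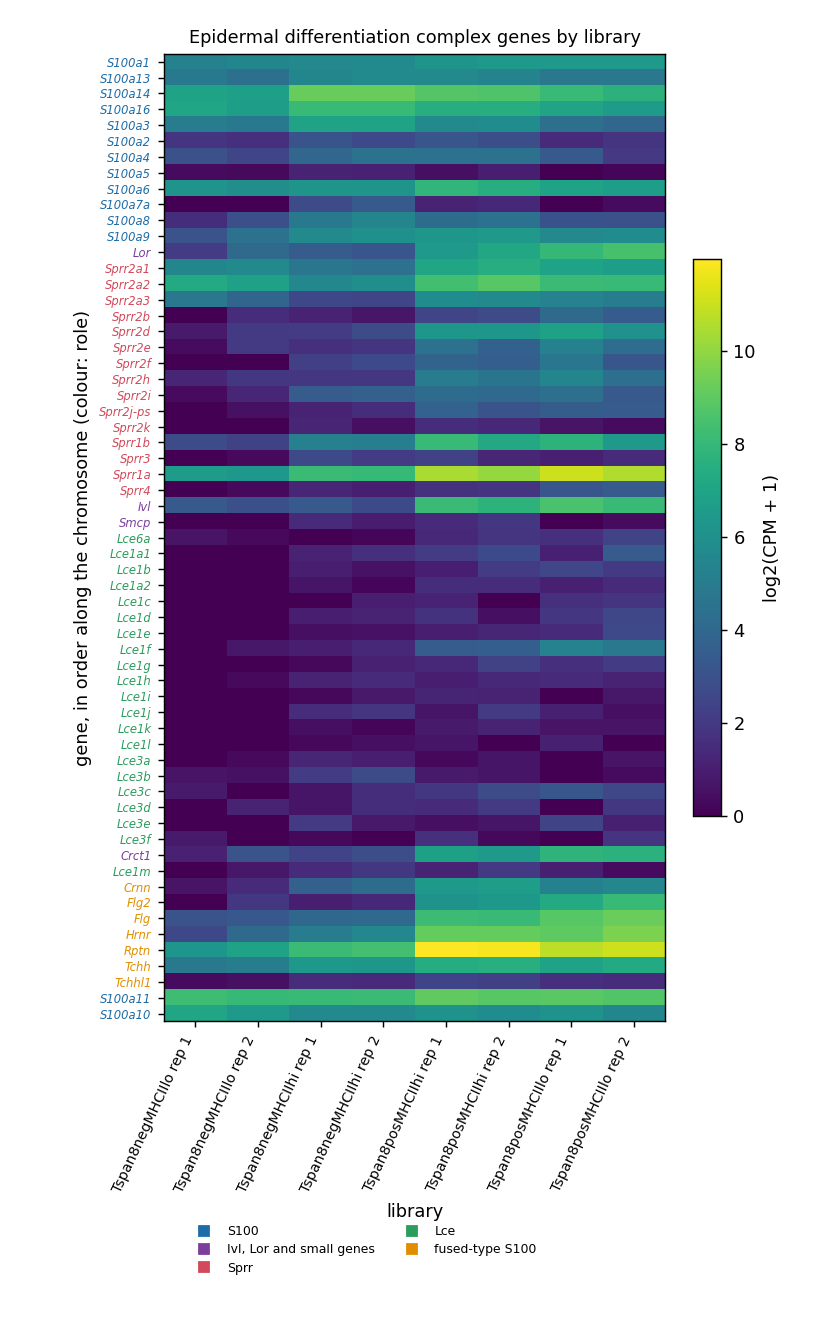
Level of the 61 members (rows, in order along the chromosome, label colour for role) in each of the 8 libraries (columns), as log2(CPM + 1). The Tspan8pos libraries, on the right, are brighter over most Sprr rows and most of the block from Crct1 to Tchh. Sprr3 and Lce1m, which lie among these rows, have their highest mean in Tspan8negMHCIIhi. S100a14, S100a16, S100a3 and S100a8 are brightest in the Tspan8negMHCIIhi columns.

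The first comparison asked how mTECs that display Tspan8 differ from those that do not at the same MHCII level. Differences were tested with edgeR's quasi-likelihood test, adjusted over the 17006 genes that passed a filter on low counts. A call needed an adjusted p under 0.01 together with a change of at least 1 on the log2 scale in either direction. The filter kept 50 members and removed 11 of low count (S100a5, Sprr2k, Smcp, Lce1a2, Lce1e, Lce1h, Lce1i, Lce1k, Lce1l, Lce3a and Lce3f). Within MHCIIlo, 30 of the 50 rose in Tspan8pos cells, against 12.1% of all genes tested, and 1 fell, against 9.34%. Within MHCIIhi, 21 rose, against 11.0% of all genes, and 3 fell, against 7.45%. The median log2 fold change over the members tested was 3.83 within MHCIIlo, or 3.17 with genes at 0 in 1 group set to their lower bound, and 1.34 within MHCIIhi, while the median over all genes lay at -0.03 in both. With the Sprr2, Lce1 and Lce3 genes each summed to 1 row, because they share sequence, 18 single genes or sums rose within MHCIIlo. Summing leaves fewer rows than the 50 members, so the 18 cannot be set beside the 30. Marker lists of other cell types moved as well. Within MHCIIlo, 2 of 6 thymocyte genes were lower with Tspan8 and 3 of 6 monocyte and macrophage genes higher, the latter summing to 281.4 and 287.6 CPM in Tspan8posMHCIIlo against 68.5 and 111.5 in Tspan8negMHCIIlo. Of these 6, Itgam, Cd14, Cd68 and Lyz2 averaged higher in Tspan8posMHCIIlo. Csf1r averaged lower there (10.2 against 12.6 CPM), as did Adgre1 (0.478 against 1.13). Within MHCIIhi, 2 of these 6 were higher and 1 lower. Their part in the result was not tested. Both comparisons called 18 of the same members as higher, which is 60.0% of the 30 and 85.7% of the 21.

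Counts differed between the role groups. Within MHCIIlo, the calls higher in Tspan8pos cells covered 6 of 7 fused-type S100 genes, 12 of 14 Sprr genes, all 3 of Ivl, Lor and Crct1, 6 of 13 Lce genes and 3 of 13 short S100 genes. Within MHCIIhi the counts were 6 of 7, 9 of 14, 3 of 3, 2 of 13 and 1 of 13. Lce1b, Lce1c, Lce1d and Lce1g passed the filter only through Tspan8pos libraries, so the filter itself bears on the Lce shares. With no filter, 7 of 21 Lce genes and 31 of 61 members were called higher within MHCIIlo. Within MHCIIhi these counts were 2 of 21 and 22 of 61. The unfiltered shares of all genes in these comparisons are not given here. All 4 falling calls of the pair of comparisons were of short S100 genes or of Lce3b.

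**Figure D3:**
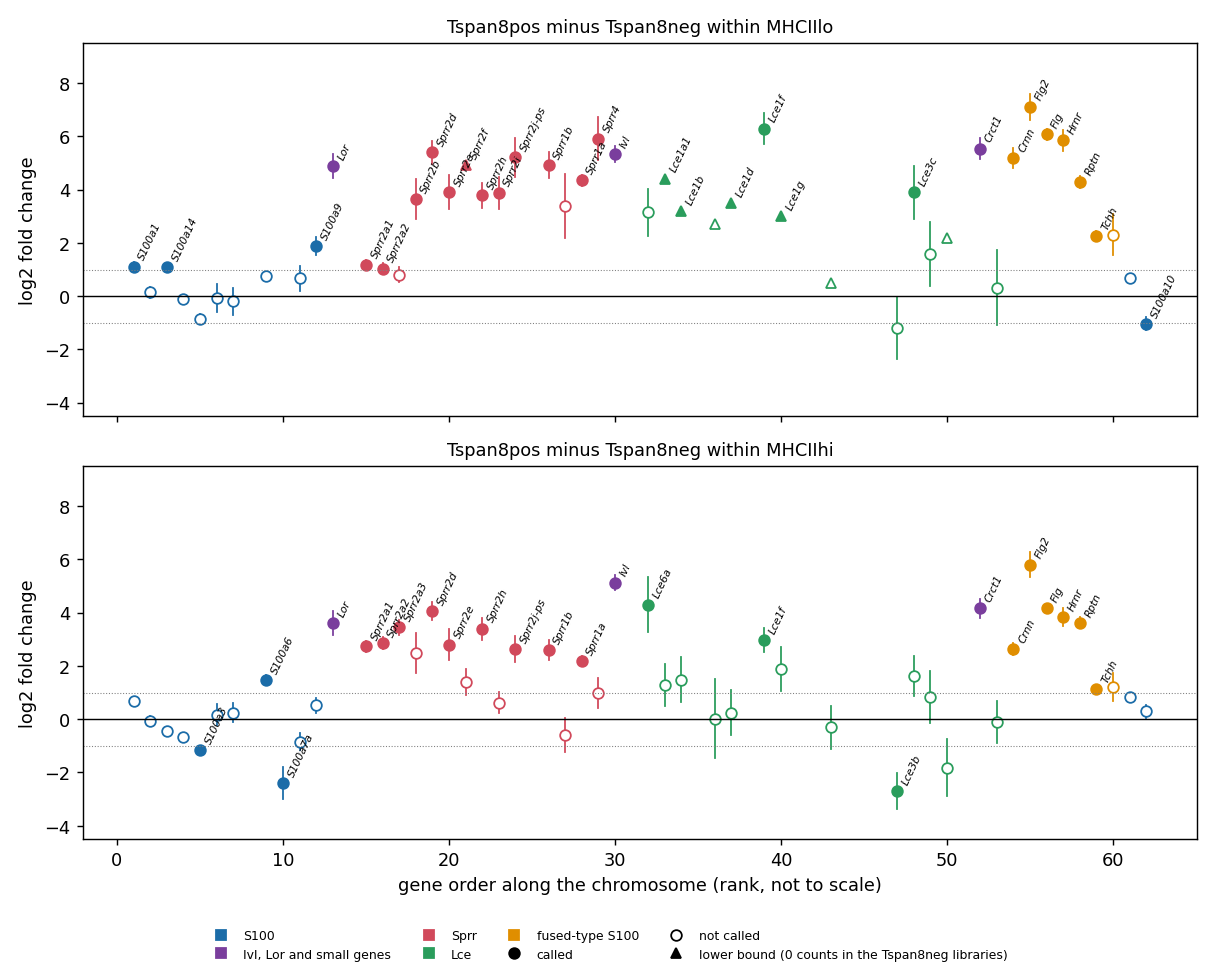
Log2 fold change of Tspan8pos over Tspan8neg cells within MHCIIlo (top) and MHCIIhi (bottom) for tested members in their order along the chromosome, with the standard error as a bar; filled symbols are called genes and triangles are lower bounds where both Tspan8neg libraries held 0 counts. Points from Lor to Tchh lie mostly above 0 in the top panel, and the short S100 genes at both ends lie close to it.

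Sequence upstream of 8 members was read from RefSeq (GRCm38.p6) to place the genes that rose together beside 2 that peaked in Tspan8negMHCIIhi. Each run below is the 250 bases before the RefSeq transcription start, 5′ to 3′ in the direction of the gene, and distances are counted to that start. GENCODE begins S100a8 at 90668978, Flg at 93273523 and Sprr1a (minus strand) at 92485895, inside the windows printed here. For 46 of 56 members with a promoter entry, the first 30 bases after the RefSeq start were found in a GENCODE transcript of the gene. Capitals mark a TATA box (TATAAA), an AP-1 motif (TGANTCA), an Ets core (AGGAAG) or a Klf core (CACCC), each on either strand, and adjoining matches run together. Rptn, Flg and Flg2 are fused-type S100 genes, Sprr1a, Ivl and Lor encode envelope proteins, and S100a8 and Lce3b were highest in Tspan8negMHCIIhi.
Rptn, chr3:93393449-93393698, plus strand: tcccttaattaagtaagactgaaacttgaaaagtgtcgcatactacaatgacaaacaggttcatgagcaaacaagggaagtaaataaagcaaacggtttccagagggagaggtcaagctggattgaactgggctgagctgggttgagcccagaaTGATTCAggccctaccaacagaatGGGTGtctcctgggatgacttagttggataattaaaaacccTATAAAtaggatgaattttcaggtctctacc
Flg, chr3:93273296-93273545, plus strand: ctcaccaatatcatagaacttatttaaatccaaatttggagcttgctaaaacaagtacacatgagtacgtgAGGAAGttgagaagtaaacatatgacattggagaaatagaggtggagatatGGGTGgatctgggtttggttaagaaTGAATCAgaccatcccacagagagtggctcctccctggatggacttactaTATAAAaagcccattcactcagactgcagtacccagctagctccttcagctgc
Flg2, chr3:93197023-93197272, plus strand: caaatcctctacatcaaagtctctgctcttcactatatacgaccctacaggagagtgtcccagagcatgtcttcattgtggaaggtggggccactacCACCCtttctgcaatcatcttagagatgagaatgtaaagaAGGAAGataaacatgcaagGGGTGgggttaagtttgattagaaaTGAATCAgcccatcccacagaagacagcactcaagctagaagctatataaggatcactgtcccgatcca
Sprr1a, chr3:92485882-92486131, minus strand: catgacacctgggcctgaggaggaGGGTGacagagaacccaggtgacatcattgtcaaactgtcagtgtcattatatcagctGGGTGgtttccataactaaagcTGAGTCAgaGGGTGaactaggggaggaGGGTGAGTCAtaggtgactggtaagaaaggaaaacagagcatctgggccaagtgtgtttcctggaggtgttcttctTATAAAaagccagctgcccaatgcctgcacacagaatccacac
Ivl, chr3:92573736-92573985, minus strand: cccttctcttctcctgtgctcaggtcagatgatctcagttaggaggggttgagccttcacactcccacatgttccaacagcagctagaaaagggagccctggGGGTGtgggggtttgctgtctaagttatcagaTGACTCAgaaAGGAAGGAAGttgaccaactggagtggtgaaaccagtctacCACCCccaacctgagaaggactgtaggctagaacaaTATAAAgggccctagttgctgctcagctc
Lor, chr3:92083143-92083392, minus strand: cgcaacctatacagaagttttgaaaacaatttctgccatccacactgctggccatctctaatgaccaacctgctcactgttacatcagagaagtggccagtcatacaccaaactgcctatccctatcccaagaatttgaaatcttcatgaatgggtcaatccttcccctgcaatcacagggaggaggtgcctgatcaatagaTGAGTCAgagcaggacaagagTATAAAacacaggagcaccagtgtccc
S100a8, chr3:90668821-90669070, plus strand: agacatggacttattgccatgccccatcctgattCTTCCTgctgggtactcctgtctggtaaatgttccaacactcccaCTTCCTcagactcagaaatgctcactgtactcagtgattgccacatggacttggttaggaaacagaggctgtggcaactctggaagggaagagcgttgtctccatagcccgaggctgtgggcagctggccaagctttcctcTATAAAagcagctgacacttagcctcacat
Lce3b, chr3:92932729-92932978, plus strand: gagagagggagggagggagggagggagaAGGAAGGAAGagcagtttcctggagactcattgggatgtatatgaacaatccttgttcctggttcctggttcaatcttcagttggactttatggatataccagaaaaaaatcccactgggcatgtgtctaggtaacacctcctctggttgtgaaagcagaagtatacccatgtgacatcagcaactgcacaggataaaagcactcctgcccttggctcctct
These 8 genes were chosen with the results known, and the AP-1 motif, as the pattern TGANTCA, was found in the first 6 and not in the last 2. Its free middle base was T in Rptn, A in Flg and Flg2, and G or C in Sprr1a, Ivl and Lor. Other members called as higher with Tspan8 had no such motif in this window, among them Hrnr, Tchh, Sprr2a1, Sprr2a2, Sprr4, Lce1a1, Lce1b, Lce1d and Lce1g, while S100a11, which was not called, held 2. Counted to its first base, Rptn held it 96 bases before the start, Flg 103, Flg2 69, Ivl 116 and Lor 48, and Sprr1a held a pair of them, at 146 and 116. Over the 56 members with a promoter entry, 17 (30.4%) held the AP-1 motif in this window, against 6.75% of the 32851 promoters of the table. They were 9 of 14 Sprr, 5 of 7 fused-type S100, 2 of 4 of the group of Ivl and Lor, 1 of 11 short S100 and 0 of 20 Lce promoters. TATAAA was in 39.3% of the members' promoters against 12.4% of all, and beginning 20 to 40 bases before the start on the transcribed strand in 32.1% against 1.99%. The Ets core was in 42.9% against 29.5%, and the Klf core in 48.2% against 52.0%. Neighbouring members arose by duplication and share sequence, so these shares are descriptions, and a match does not show that a factor is bound.

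Among the fused-type S100 genes, Rptn (repetin, chr3:93393699-93399442), a protein of tongue papillae and hair follicles, had the most counts. Its CPM was 77.5 and 120.0 in Tspan8negMHCIIlo, 282 and 339.7 in Tspan8negMHCIIhi, 4019 and 3593 in Tspan8posMHCIIhi, and 1763 and 2121 in Tspan8posMHCIIlo. No subset overlapped another. The log2 fold change with Tspan8 was 4.29 ± 0.21 (SE) within MHCIIlo (adjusted p = 1.90e-07, edgeR) and 3.61 ± 0.21 within MHCIIhi (adjusted p = 4.74e-07).

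Flg (filaggrin), which bundles keratin filaments, was the member with the smallest adjusted p in both Tspan8 comparisons. It stood at 7.30 and 8.49 CPM in Tspan8negMHCIIlo, 15.4 and 16.2 in Tspan8negMHCIIhi, 296.9 and 268 in Tspan8posMHCIIhi, and 458 and 610.2 in Tspan8posMHCIIlo. The order of the subsets thus differed from that of Rptn, with Tspan8posMHCIIlo on top. Its log2 fold change with Tspan8 was 6.07 ± 0.21 within MHCIIlo (adjusted p = 5.44e-08) and 4.16 ± 0.18 within MHCIIhi (adjusted p = 1.75e-07). Flg2, a filaggrin relative, had 0 and 2.83 CPM in Tspan8negMHCIIlo, 1.04 and 1.54 in Tspan8negMHCIIhi, 70.9 and 81.7 in Tspan8posMHCIIhi, and 159 and 264.5 in Tspan8posMHCIIlo. It showed the largest fitted difference of the members without a group at or under 3 counts, 7.11 ± 0.49 within MHCIIlo and 5.80 ± 0.48 within MHCIIhi. The first of these was 13.09 without replicate 2 of Tspan8negMHCIIlo, which leaves 0 counts in that subset.

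Hrnr (hornerin), another envelope protein of this family, lay at 5.06 and 16.7 CPM in Tspan8negMHCIIlo, 31.2 and 45.9 in Tspan8negMHCIIhi, 557 and 558 in Tspan8posMHCIIhi, and 519 and 769.6 in Tspan8posMHCIIlo. Both Tspan8pos subsets overlapped each other and stood far above the rest, with log2 fold changes of 5.85 ± 0.40 and 3.84 ± 0.34 within MHCIIlo and MHCIIhi. Crnn (cornulin), typical of oesophageal epithelium, was at 0.562 and 1.65 CPM in Tspan8negMHCIIlo, 11.9 and 17.9 in Tspan8negMHCIIhi, 86.6 and 102 in Tspan8posMHCIIhi, and 37.9 and 45.3 in Tspan8posMHCIIlo. It rose with Tspan8 by 5.17 ± 0.38 and 2.63 ± 0.23. Tchh (trichohyalin), which hardens the inner root sheath of hair, was the least Tspan8-linked of the called genes of this family, with 26.7 and 31.6 CPM in Tspan8negMHCIIlo, 83.4 and 79.6 in Tspan8negMHCIIhi, 167 and 186.5 in Tspan8posMHCIIhi, and 116.5 and 159.6 in Tspan8posMHCIIlo. Its log2 fold changes were 2.26 ± 0.18 and 1.12 ± 0.17. Tchhl1 did not exceed 4.38 CPM in any library and was not called in any comparison.

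The annotated spans of other genes overlap those of some of these members. Rptn, Hrnr and Tchh are overlapped on the opposite strand by Gm37245, and Flg and Rptn on their own strand by Rplp0-ps1 and Gm37857. The preparation is described as stranded in the labels and not in the study's methods. However, 0 of the 54-base stretches of Rptn, Flg, Hrnr and Tchh transcripts occur in annotated transcripts of another gene, on either strand.

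Ivl (involucrin), an early scaffold of the cornified envelope, had 9.27 and 6.6 CPM in Tspan8negMHCIIlo, 9.15 and 5.51 in Tspan8negMHCIIhi, 286 and 210.5 in Tspan8posMHCIIhi, and 366 and 276 in Tspan8posMHCIIlo. Its MHCIIhi and MHCIIlo libraries overlapped within each Tspan8 label, and its Tspan8 difference was 5.34 ± 0.29 within MHCIIlo (adjusted p = 2.66e-07, edgeR) and 5.13 ± 0.28 within MHCIIhi (adjusted p = 3.37e-07). Lor (loricrin), the main protein of the mature envelope, was at 3.37 and 16.5 CPM in Tspan8negMHCIIlo, 10.2 and 8.33 in Tspan8negMHCIIhi, 86.2 and 137.6 in Tspan8posMHCIIhi, and 247 and 359 in Tspan8posMHCIIlo. It rose with Tspan8 by 4.89 ± 0.46 and 3.61 ± 0.44. Crct1, a small cysteine-rich gene of the complex, followed Lor, with 1.12 and 7.31 CPM in Tspan8negMHCIIlo, 4.37 and 6.41 in Tspan8negMHCIIhi, 110.5 and 88.2 in Tspan8posMHCIIhi, and 217 and 199 in Tspan8posMHCIIlo, and with Tspan8 differences of 5.54 ± 0.40 and 4.16 ± 0.36. Without replicate 2 of Tspan8negMHCIIlo, the difference within MHCIIlo was 6.498 for Lor, 7.50 for Crct1, 6.99 for Hrnr and 6.18 for Crnn. Smcp, a gene of sperm mitochondria, did not exceed 2.85 CPM in any library.

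The Sprr proteins are small cross-bridging components of the envelope. Sprr1a had 95.8 and 82.5 CPM in Tspan8negMHCIIlo, 289 and 259.7 in Tspan8negMHCIIhi, 1385 and 1097 in Tspan8posMHCIIhi, and 2168 and 1481 in Tspan8posMHCIIlo. All 4 subsets were apart, and the Tspan8 difference was 4.35 ± 0.21 within MHCIIlo (adjusted p = 1.72e-07, edgeR) and 2.18 ± 0.19 within MHCIIhi (adjusted p = 7.87e-06). Sprr1b, its neighbour, had 5.62 and 4.01 CPM in Tspan8negMHCIIlo, 36.6 and 34.2 in Tspan8negMHCIIhi, 279 and 149 in Tspan8posMHCIIhi, and 210.5 and 88.7 in Tspan8posMHCIIlo. It rose by 4.92 ± 0.50 and 2.60 ± 0.38.

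Sprr2 genes differed in pattern. Sprr2d, Sprr2e and Sprr2h were low in both Tspan8neg subsets. Sprr2d had 0.843 and 3.07 CPM in Tspan8negMHCIIlo, 3.33 and 5.77 in Tspan8negMHCIIhi, 78.7 and 80.9 in Tspan8posMHCIIhi, and 115 and 65.5 in Tspan8posMHCIIlo, with Tspan8 differences of 5.41 ± 0.43 and 4.07 ± 0.35. Sprr2e was at 0.281 and 3.07 CPM, then 2.08 and 2.56, 21.1 and 12.0, and 37.4 and 18.4 in the same order of subsets. Sprr2h was at 1.40 and 2.83, 2.70 and 2.69, 32.9 and 24.4, and 44.0 and 19.9 CPM. Both rose with Tspan8 at each MHCII level, Sprr2e by 3.90 ± 0.64 and 2.80 ± 0.57 and Sprr2h by 3.78 ± 0.48 and 3.40 ± 0.42. The call of Sprr2e within MHCIIhi was lost without either Tspan8negMHCIIhi library or replicate 1 of Tspan8posMHCIIhi. Sprr2i was already raised in Tspan8negMHCIIhi, with 0.281 and 1.42 CPM in Tspan8negMHCIIlo, 9.98 and 11.7 in Tspan8negMHCIIhi, 17.5 and 15.9 in Tspan8posMHCIIhi, and 20.3 and 9.01 in Tspan8posMHCIIlo. It was called within MHCIIlo (3.88 ± 0.60, adjusted p = 0.000403) and not within MHCIIhi (0.62 ± 0.39, adjusted p = 0.238).

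Sprr2a1, Sprr2a2 and Sprr2a3 formed another pattern. Of the 54-base windows of Sprr2a2, 96.2% also occur in Sprr2a1, and 58.8% of those of Sprr2a3 occur in it, so the split of reads among the 3 is uncertain and their sum is the firmer value. Sprr2a2 had 161 and 114 CPM in Tspan8negMHCIIlo, 47.8 and 62.3 in Tspan8negMHCIIhi, 324 and 472 in Tspan8posMHCIIhi, and 282.5 and 278.5 in Tspan8posMHCIIlo. Sprr2a1 had 44.4 and 52.6, 25.0 and 20.8, 130.0 and 173, and 124 and 98.8 CPM in the same order. Sprr2a3 had 26.7 and 13.9, 4.99 and 4.74, 55.8 and 50.4, and 39.0 and 32.8 CPM. All 3 were lowest in Tspan8negMHCIIhi, although the other Sprr genes called between the Tspan8neg subsets (Sprr1a, Sprr1b, Sprr2f, Sprr2i and Sprr3) were higher there than in Tspan8negMHCIIlo. Summed, they rose with Tspan8 by 1.05 ± 0.18 within MHCIIlo (adjusted p = 0.000739) and by 2.86 ± 0.19 within MHCIIhi (adjusted p = 9.41e-07), and they were lower in MHCIIhi than in MHCIIlo cells of the Tspan8neg label by 1.31 ± 0.18 on the log2 scale. The sum of the other 8 Sprr2 genes rose by 4.64 ± 0.45 within MHCIIlo and 2.58 ± 0.37 within MHCIIhi. The rise of the first sum within MHCIIlo was no longer called without replicate 2 of Tspan8negMHCIIlo or replicate 1 of Tspan8posMHCIIlo. Both sums were formed after their values had been seen.

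The other 6 Sprr genes had lower counts. Sprr2b rose within MHCIIlo by 3.65 ± 0.76, a call lost without either Tspan8posMHCIIlo library. Without replicate 2 of Tspan8negMHCIIlo the differences of Sprr2b and Sprr2e within MHCIIlo were 9.01 and 6.41. Sprr2f, with 0 counts in both Tspan8negMHCIIlo libraries, was at least 30.1-fold higher in Tspan8posMHCIIlo, and Sprr2j-ps, with 2 counts there, was 40.5-fold higher (95% counting interval 10.9 to 340). Sprr2j-ps was also called within MHCIIhi, a call lost in 3 of the 8 refits. Sprr4 was 74.2-fold higher within MHCIIlo, from 1 count in the Tspan8negMHCIIlo libraries (95% counting interval 13.0 to 2965). Sprr3, a gene of oesophageal epithelium, was the Sprr gene highest in Tspan8negMHCIIhi, with 5.20 and 3.33 CPM against 0 and 0.236 in Tspan8negMHCIIlo. Sprr2k was removed by the filter.

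Lce proteins enter the envelope last. Only Lce1f averaged over 10 CPM, with 0 and 0.707 CPM in Tspan8negMHCIIlo, 1.04 and 1.54 in Tspan8negMHCIIhi, 10.2 and 11.0 in Tspan8posMHCIIhi, and 38.5 and 26.8 in Tspan8posMHCIIlo. It was 75.6-fold higher with Tspan8 within MHCIIlo (95% counting interval 25.6 to 369) and rose by 2.96 ± 0.46 on the log2 scale within MHCIIhi. Lce1a1, Lce1b, Lce1d and Lce1g had 0 counts in the Tspan8negMHCIIlo libraries and were called within MHCIIlo, at least 21.3-, 9.10-, 11.4- and 7.96-fold higher. Lce3c was also called there. When each of the 8 libraries was left out in turn, the call of Lce1f was kept each time, that of Lce1a1 was lost once, that of Lce1b 5 times, that of Lce1d 6 times, that of Lce3c 7 times and that of Lce1g 8 times. Summed over the 14 genes, Lce1 rose with Tspan8 by 6.04 ± 0.50 within MHCIIlo (11.25 without replicate 2 of Tspan8negMHCIIlo, which leaves 0 counts there), and its difference within MHCIIhi was 1.2 ± 0.31, with an adjusted p of 0.011, and not called. Lce6a had 25.4 times the level in Tspan8posMHCIIhi that it had in Tspan8negMHCIIhi, where it held 1 count (95% counting interval 4.06 to 1051), and its call was lost in 6 of the 8 refits. Lce1c, Lce1j, Lce1m, Lce3d and Lce3e were tested and called in no comparison.

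Lce3b went the other way. It was at 3.33 and 5.90 CPM in Tspan8negMHCIIhi and at 0.797 CPM or less in every other library, and was lower in Tspan8posMHCIIhi than in Tspan8negMHCIIhi (log2 fold change -2.69 ± 0.68, adjusted p = 0.00943). This call was lost when any library outside Tspan8negMHCIIlo was left out. Summed over its 6 genes, Lce3 rose by 2.56 ± 0.38 within MHCIIlo and differed by -0.15 ± 0.29 within MHCIIhi.

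The short S100 genes were the group with the weakest link to Tspan8. S100a14 was at 118.5 and 108 CPM in Tspan8negMHCIIlo, 586 and 579 in Tspan8negMHCIIhi, 436.5 and 411 in Tspan8posMHCIIhi, and 273 and 209 in Tspan8posMHCIIlo. With Tspan8 it rose by 1.08 ± 0.15 within MHCIIlo, under the limit on fold change without replicate 1 of Tspan8posMHCIIlo, and its difference within MHCIIhi was -0.46 ± 0.14 (adjusted p = 0.0268). S100a16 had 129 and 105 CPM in Tspan8negMHCIIlo, 274 and 279.5 in Tspan8negMHCIIhi, 173 in each Tspan8posMHCIIhi library, and 125 and 93.0 in Tspan8posMHCIIlo. S100a3, known from the hair cuticle, had 31.7 and 27.6, 118 in each library, 50.0 and 55.1, and 20.3 and 14.3 CPM in the same order. It was lower with Tspan8 within MHCIIhi (-1.16 ± 0.16, adjusted p = 0.000200), although its annotated span overlaps S100a2 and Gm42674 on the same strand. S100a7a, a relative of psoriasin, was at 5.62 and 9.36 CPM in Tspan8negMHCIIhi and at 1.63 CPM or less elsewhere. It was called as lower with Tspan8 within MHCIIhi, a call lost in 6 of the 8 refits.

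S100a8 and S100a9 encode the subunits of calprotectin, which keratinocytes make on activation and neutrophils in abundance. S100a8 was at 1.97 and 6.6 CPM in Tspan8negMHCIIlo, 27.7 and 42.8 in Tspan8negMHCIIhi, 17.5 and 22.2 in Tspan8posMHCIIhi, and 7.15 and 6.96 in Tspan8posMHCIIlo. S100a9 was at 7.30 and 21.0, 51.4 and 64.3, 80.1 and 87.2, and 48.4 and 56.5 CPM, and rose with Tspan8 within MHCIIlo by 1.88 ± 0.33 (adjusted p = 0.000996), a call that was lost without replicate 2 of Tspan8posMHCIIlo, while without replicate 2 of Tspan8negMHCIIlo the difference was 2.87. Of 9 neutrophil genes in the table, Retnlg and Mmp8 did not exceed 1.46 CPM in any library. Ly6g was at 21.8 and 24.4 CPM and Mpo at 55.9 and 59.5 CPM in Tspan8negMHCIIhi, where both were highest, as was Camp. Ngp averaged 13.6 CPM there and 13.4 in Tspan8posMHCIIlo. Csf3r was highest in Tspan8posMHCIIhi (mean 2.82 CPM), and Cxcr2 averaged 5.36 to 7.23 CPM over the 4 subsets. Ltf lay between 409.5 and 791.5 CPM in the Tspan8pos libraries and made up most of the list's sum there, 452.7 to 815 CPM. In Tspan8negMHCIIhi it held 17.5 and 34.0 CPM of sums of 130.8 and 157.1. The part of such cells in the values of S100a8 and S100a9 was not tested.

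S100a6 (calcyclin) had 71.9 and 59.7 CPM in Tspan8negMHCIIlo, 73.4 and 72.8 in Tspan8negMHCIIhi, 232 and 177 in Tspan8posMHCIIhi, and 122 and 100.2 in Tspan8posMHCIIlo. It was the short S100 gene called higher with Tspan8 within MHCIIhi (1.48 ± 0.17). S100a11, itself an envelope constituent, was at 302 and 258, 264 and 286, 522 and 460.4, and 479.9 and 422 CPM, and its differences of 0.68 ± 0.14 and 0.83 ± 0.14 were under the limit on fold change. Pseudogenes share 40.6% of its windows. S100a1 had 37.4 and 44.3, 48.9 and 51.0, 71.9 and 88.8, and 89.1 and 88.1 CPM and rose within MHCIIlo by 1.11 ± 0.16, a call lost without replicate 1 of Tspan8negMHCIIlo. S100a10, the partner of annexin A2, was the member called lower within MHCIIlo, with 134 and 87.2 CPM in Tspan8negMHCIIlo, 50.3 and 52.3 in Tspan8negMHCIIhi, 69.7 and 56.3 in Tspan8posMHCIIhi, and 67.1 and 44.2 in Tspan8posMHCIIlo. Its difference within MHCIIlo was -1.04 ± 0.24 (adjusted p = 0.00518), a call that was lost without replicate 1 of Tspan8negMHCIIlo or replicate 2 of Tspan8posMHCIIlo. S100a13 had 28.1 and 20.3 CPM in Tspan8negMHCIIlo, 43.5 and 48.1 in Tspan8negMHCIIhi, 48.8 and 39.4 in Tspan8posMHCIIhi, and 26.4 and 26.9 in Tspan8posMHCIIlo. S100a4, a marker of motile mesenchymal cells, had 6.74 and 4.715, 14.56 and 21.15, 21.7 and 21.1, and 9.34 and 3.0 CPM in the same order. Both were higher in the MHCIIhi libraries of each Tspan8 label without overlap. S100a2 ranged from 1.65 to 8.17 CPM, and none of these 3 was called with Tspan8. S100a5 did not exceed 1.25 CPM. Windows shared with Gm42674 make up 47.0% of S100a4.

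**Figure D4:**
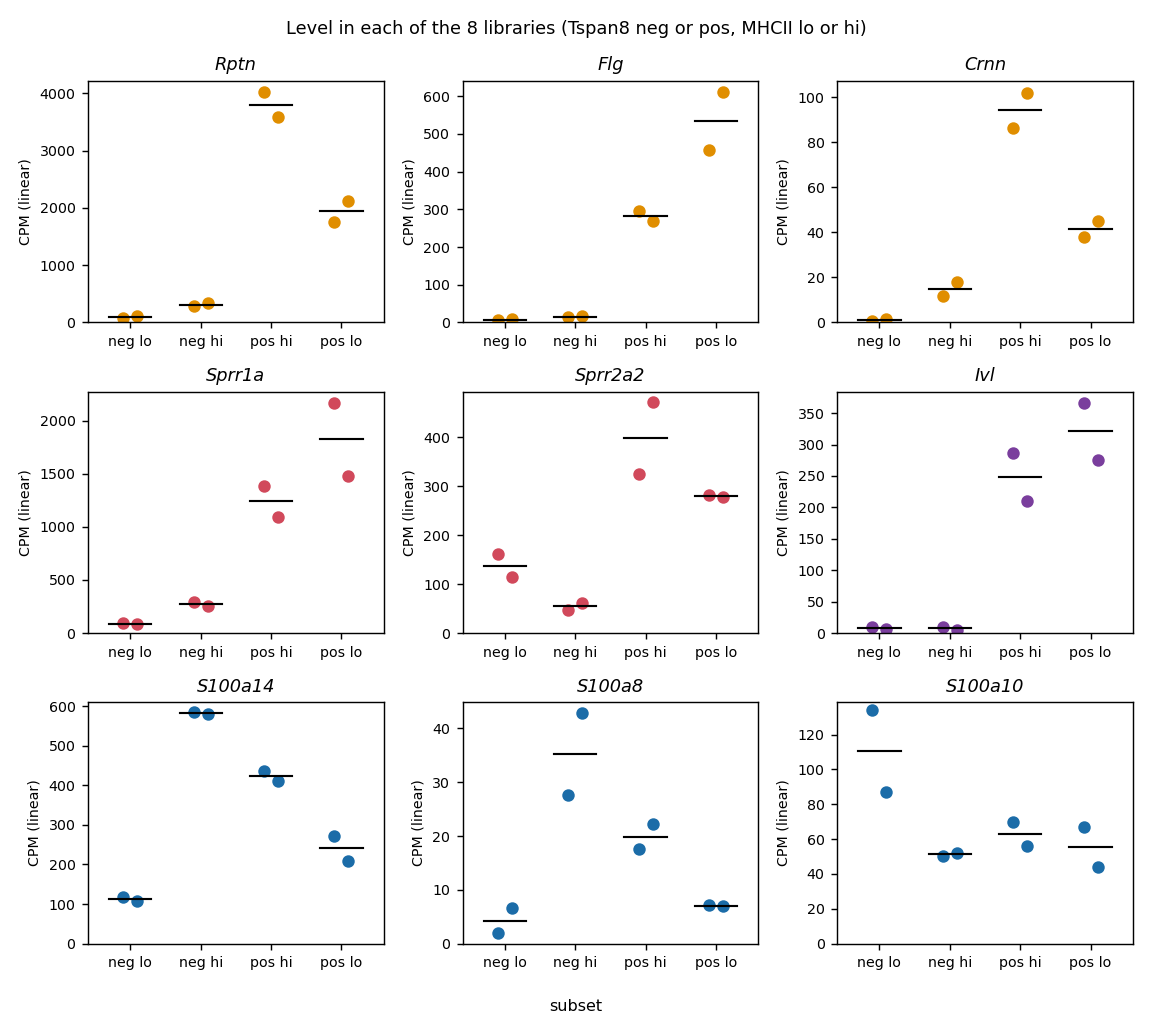
CPM (linear axes from 0) of 9 members in each of the 8 libraries, as points, with the mean of each subset as a line; neg and pos refer to Tspan8, lo and hi to MHCII. Rptn and Crnn peak in Tspan8posMHCIIhi, Flg, Sprr1a and Ivl in Tspan8posMHCIIlo, S100a14 and S100a8 in Tspan8negMHCIIhi and S100a10 in Tspan8negMHCIIlo, and Sprr2a2 is lowest in Tspan8negMHCIIhi.

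The second comparison set MHCIIhi against MHCIIlo cells of the same Tspan8 label, the axis along which Aire transcript changes most. Among Tspan8neg cells, 17 of the 50 members were higher in MHCIIhi, against 13.1% of all genes, and 4 were lower, against 9.67%. The rising genes were 7 short S100 genes, 5 Sprr genes, 4 fused-type S100 genes and Lce3b, and none of Ivl, Lor and Crct1 was called. S100a14 rose by 2.36 ± 0.15 (adjusted p = 1.66e-06, edgeR), S100a3 by 1.99 ± 0.17, S100a8 by 3.0 ± 0.40, S100a9 by 2.00 ± 0.32 and S100a16 by 1.25 ± 0.16. S100a7a, with 0 counts in both Tspan8negMHCIIlo libraries, was at least 20.6-fold higher. Crnn rose by 3.69 ± 0.41, Hrnr by 1.79 ± 0.39, Rptn by 1.65 ± 0.20 and Tchh by 1.48 ± 0.18, and Sprr1b rose by 2.89 ± 0.52 and Sprr1a by 1.62 ± 0.20. The falling genes were Sprr2a1 (-1.10 ± 0.20), Sprr2a2 (-1.31 ± 0.22), Sprr2a3 (-2.04 ± 0.31) and S100a10 (-1.10 ± 0.23). Of these 21 calls, that of Lce3b was lost in 7 of the 8 refits without a library, that of S100a4 in 5 and those of S100a10 and Sprr3 in 3 each. Single refits also ended the calls of Sprr2a1 (2 of 8), Sprr2a2, Hrnr and S100a7a (1 of 8 each). Marker lists of other cell types moved with this comparison. Of 6 thymocyte genes 4 were lower in MHCIIhi, and of 3 endothelial genes 2 were lower. Of 6 monocyte and macrophage genes 3 were higher, their sum going from 68.5 and 111.5 CPM to 386.2 and 444.9. Of 4 tested dendritic cell genes 2 were higher and none was called lower, although Itgax averaged 17.5 CPM in Tspan8negMHCIIlo and 5.16 in Tspan8negMHCIIhi. Of 7 tested neutrophil genes 2 were higher, and of 5 fibroblast genes 2 were higher and 2 lower. Their part in the result, that of S100a8 and S100a9 included, was not tested.

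Among Tspan8pos cells, 3 members were higher in MHCIIhi, against 4.59% of all genes, and 1 was lower, against 2.62%, so that the share of members called, 6.0% and 2.0%, was close to that of all genes. Crnn (1.16 ± 0.22), S100a3 (1.69 ± 0.19) and S100a4 (2.11 ± 0.44) rose and Flg2 (-1.49 ± 0.30) fell, and the same 3 rising genes were also called among Tspan8neg cells. The call of Crnn was lost whenever 1 of the 4 libraries of the comparison was left out, that of Flg2 in these refits and without either Tspan8negMHCIIhi library, that of S100a4 in 5 of the 8 refits that left out a library, and that of S100a3 without replicate 2 of Tspan8posMHCIIlo. S100a4 also shares windows with Gm42674. Rptn was higher in MHCIIhi by 0.97 ± 0.19 and Flg lower (-0.92 ± 0.15), both just under the limit on fold change. Among members averaging at least 10 CPM, Flg, Flg2, Lor, Crct1, Lce1f and Sprr1a had both Tspan8posMHCIIlo libraries above both Tspan8posMHCIIhi libraries. Rptn, Crnn, Tchh, Sprr2a1, Sprr2a2, Sprr2a3, S100a3, S100a4, S100a6, S100a8, S100a9, S100a13, S100a14 and S100a16 had the reverse order. How many of all genes had either order was not counted.

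The interaction compared the Tspan8 difference within MHCIIlo with that within MHCIIhi, and 7 of the 50 members were called. The difference was larger within MHCIIlo for 4 (2.36% of all genes), namely Crnn (by 2.54 ± 0.50, adjusted p = 0.00861), Sprr1a (2.18 ± 0.27, adjusted p = 0.000795), Flg (1.92 ± 0.27, adjusted p = 0.00159) and S100a14 (1.54 ± 0.21, adjusted p = 0.00127). It was smaller within MHCIIlo for 3 (2.24% of all genes), Sprr2a1 (-1.55 ± 0.27), Sprr2a2 (-1.82 ± 0.30) and Sprr2a3 (-2.63 ± 0.40). All 3 are uncertain for the reads they share, and their sum gave -1.81 ± 0.25 (adjusted p = 0.00148), a call lost in 2 of the 8 refits. The sum of the other 8 Sprr2 genes went the other way, by 2.06 ± 0.58 (adjusted p = 0.0426), and was not called. Ivl, in contrast, had an interaction of 0.21 ± 0.40 (adjusted p = 0.796), and that of Rptn was 0.68 ± 0.27 (adjusted p = 0.128), although without replicate 2 of Tspan8negMHCIIlo it reached 1.02 and was called. With no filter on low counts, 10 members had a larger difference within MHCIIlo (2.65% of all genes) and 4 a smaller one (2.32%). The number of members called in the interaction varied between refits that left out a library, and the share of all genes called in them is not given here. When single libraries were left out, the call of Sprr1a was kept each time, those of Flg and S100a14 were lost without replicate 2 of Tspan8posMHCIIhi, that of Crnn was lost in 6 of the 8 refits, and those of Sprr2a1, Sprr2a2 and Sprr2a3 in 5 of the 8 each.

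**Figure D5:**
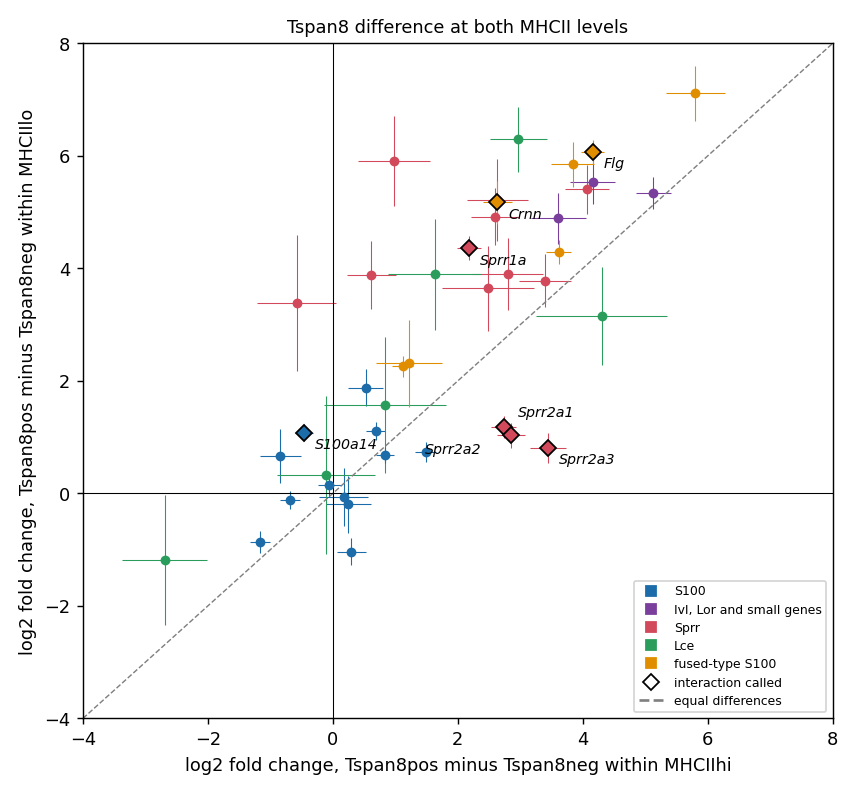
Tspan8 log2 fold change within MHCIIlo (y axis) against that within MHCIIhi (x axis) for 41 tested members, with standard errors and a dashed line of equal differences. The other 9 had 0 counts in both Tspan8negMHCIIlo libraries and are not plotted. Crnn, Sprr1a, Flg and S100a14, outlined, lie above the line, and Sprr2a1, Sprr2a2 and Sprr2a3 lie below it.

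Levels of different members were compared per kilobase of exon. In both Tspan8neg subsets S100a11 led, with 548.6 and 538 CPM per kb in Tspan8negMHCIIlo and Tspan8negMHCIIhi, and Sprr1a was second with 111 and 340.2, or after S100a10 in the first and S100a14 in the second when the longest transcript was taken as the length. In Tspan8posMHCIIhi the order was Sprr1a (1540 CPM per kb), S100a11 (961) and Rptn (918), and in Tspan8posMHCIIlo it was Sprr1a (2264), S100a11 (883), Rptn (468) and Crct1 (263). In Tspan8negMHCIIhi, S100a14 came next with 337 CPM per kb. Flg and Flg2, whose exons span 18829 and 20803 bases, ranked lower per kilobase than by counts.

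Genes that act with the complex but lie elsewhere were followed with 2 lists, chosen with earlier results of these data known. Of 24 cornified envelope partners, such as transglutaminases, plakins and desquamation proteases, 23 rose with Tspan8 within MHCIIlo, against 12.1% of all genes tested. Within MHCIIhi 21 rose, against 11.0%, and none fell at either level. The largest differences within MHCIIlo were those of Klk7, a desquamation protease (6.46 ± 0.22), Cnfn, cornifelin (5.96 ± 0.26), and Cdsn, corneodesmosin (5.83 ± 0.22). The summed CPM of the list lay between 388 and 802 in the Tspan8neg libraries and between 10170 and 11560 in the Tspan8pos libraries. Among the 24, 9 were called as higher in MHCIIhi within Tspan8neg cells, against 13.1% of all genes. Within Tspan8pos cells 1 was higher, against 4.59%, and 2 were lower, against 2.62%. Of 15 regulators of epidermal differentiation, 12 rose and 1 fell in each Tspan8 comparison. Of all genes tested, 12.1% rose and 9.34% fell within MHCIIlo, and 11.0% rose and 7.45% fell within MHCIIhi. Ovol1 (3.48 ± 0.19), Grhl3 (3.02 ± 0.22) and Hopx (2.91 ± 0.22) had the largest differences within MHCIIlo, and Maf was the regulator that fell (-1.37 ± 0.29).

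Between the first and the last member lie 13 other protein-coding genes, of which 12 were in the table and 8 were tested. With Tspan8, 6 of the 8 rose at both MHCII levels, against 12.1% of all genes within MHCIIlo and 11.0% within MHCIIhi. Kprp, a keratinocyte proline-rich protein, rose by 6.10 ± 0.24 within MHCIIlo, 2310046K23Rik rose by 5.85 ± 0.38, and Gm9774, with 0 counts in both Tspan8negMHCIIlo libraries, was at least 9.10-fold higher. Pglyrp3 and Pglyrp4, which encode peptidoglycan recognition proteins, and 2310050C09Rik were the others. The 2 not called were Gm42674, which overlaps S100a3 and S100a4, and Gm4858.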

How the data were processed

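Whole-transcriptome RNA-seq of 8 libraries of sorted mTECs was analysed. The authors deposited estimated counts per gene as whole numbers, without normalization, made per the study's methods with Salmon 1.8.0 from single-end reads of 54 bases on a Gencode mouse transcriptome. Library preparation is described as pre-amplified and tagmented cDNA in the methods and as a stranded kit in the labels. Symbols and coordinates came from GENCODE vM21 (GRCm38), later than the authors' release, and 25336 identifiers (99.49%) matched. Library totals set the precision, and floors (3 counts) and counting intervals cover counting error only.

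Groups followed the sample labels. Counts were tested in R 4.3.3 with edgeR 4.0.16 (quasi-likelihood test, TMM, filterByExpr, 1 fit of the 8 libraries, Benjamini-Hochberg over 17006 genes, two-sided), with DESeq2 1.42.0 as an alternative. Standard errors were taken as the size of the log2 difference over the square root of its F value. The test was also run on counts simulated from its own fitted dispersions. Such a run cannot show whether those dispersions hold in the real libraries. No exact permutation test was run, since 2 libraries against 2 cannot reach 0.05. A gene with 0 counts in a group is given as a lower bound against 3 counts over that group, and one with 1 to 3 counts as a ratio with a 95% interval.

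Values in every library are given for members with a mean of at least 10 CPM or a called interaction, and 3 genes of each list for the largest difference within MHCIIlo. The members, gene lists and motifs were chosen with earlier results of these data known, and the sums of Sprr2a1 to Sprr2a3 and of the other Sprr2 genes after seeing the values. Shared windows are 54-base stretches of a member's transcripts found in another gene's. Promoters were found for 56 of 62 members. The alternatives were other normalization, filters, thresholds and tests, fits to 4 libraries, a replicate block, leaving out each library, thinning to 1941518 counts, and summed families.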

Additional observations from a re-analysis of the deposited data

Results flagged for a closer look

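For 7 members and for sums over 4 families, the Tspan8 difference within MHCIIlo differed from that within MHCIIhi by edgeR's interaction test. On the log2 scale, the difference within MHCIIlo minus that within MHCIIhi was 2.54 for Crnn, 2.18 for Sprr1a, 1.92 for Flg and 1.54 for S100a14, all larger within MHCIIlo. It was -1.55 for Sprr2a1, -1.82 for Sprr2a2 and -2.63 for Sprr2a3, all smaller within MHCIIlo. Summed, the Sprr2a genes gave -1.81, all Sprr2 genes -1.23, the Lce1 genes 4.84 and the Lce3 genes 2.71. The value over all Sprr2 genes does not hold for each of them, since the sum of those other than Sprr2a1 to Sprr2a3 gave 2.06 and was not called (adjusted p = 0.0426, edgeR). The Lce1 genes together held 0 and 7 counts in the Tspan8negMHCIIlo libraries, so their value rests on few counts.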

How the results depend on the processing

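Of 1602 recomputed log2 fold changes of single genes and of the sums formed after seeing the data, 1430 kept their direction and their side of the threshold, 163 kept their direction and lost the call, 4 gained it and 5 reversed. The reversed ones were the interaction of Ivl, which was not called and lay at -0.05, -0.08 and -0.03 in refits without replicate 2 of Tspan8negMHCIIlo, replicate 1 of Tspan8negMHCIIhi and replicate 1 of Tspan8posMHCIIlo and at -0.18 after thinning (range without single libraries -0.076 to 0.652), and the MHCII difference of the 8 other Sprr2 genes among Tspan8pos cells, at 0.29 without replicate 1 of Tspan8posMHCIIlo (range -0.654 to 0.29). After summing families, which leaves fewer rows to test, 18 single genes or sums were called as higher with Tspan8 within MHCIIlo. The 1 lower call there became 0 in a fit to 4 libraries or after thinning and 2 with no fold limit. The 3 lower calls within MHCIIhi became 1 with DESeq2, with at least 10 counts in at least 4 libraries, and after thinning. The 4 lower calls between the Tspan8neg subsets became 2 after thinning and 1 after summing. Between the Tspan8pos subsets, the 3 higher calls became 1 after thinning, 5 at an adjusted p under 0.05 and 6 with no fold limit, and the 1 lower call became 0 with DESeq2, 4 with no filter, 2 with the stricter filter or no fold limit, and 5 in a fit to 4 libraries or at an adjusted p under 0.05. In the interaction, the 4 higher calls became 7 with DESeq2, 10 with no filter and 13 at an adjusted p under 0.05, and the 3 lower calls became 1 after thinning or summing. Where a fit tests fewer libraries or counts, its construction bears on the count, and otherwise the cause was not tested.

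When single libraries were left out, with the lone library of a subset taken to vary like the others, higher calls with Tspan8 numbered 22 to 29 within MHCIIlo and 18 to 22 within MHCIIhi, and lower calls 0 to 2 and 1 to 3. Higher calls with MHCII numbered 12 to 17 in Tspan8neg and 0 to 4 in Tspan8pos cells, and lower calls 2 to 4 and 0 to 5. The interaction had 1 to 13 larger and 0 to 4 smaller. The Lce1 sum ranged from 5.17 to 11.25 within MHCIIlo and from 0.89 to 1.47 within MHCIIhi and its interaction from 3.95 to 10.05. The Lce3 sum ranged from -0.362 to 0.059 within MHCIIhi, reversing to 0.059 without replicate 1 of Tspan8posMHCIIhi, and its interaction from 2.50 to 2.92. The Sprr2 sum ranged from -1.09 to -0.76 between the Tspan8neg subsets and its interaction from -1.46 to -1.06. The last was not called at -1.17 with DESeq2 size factors or at -1.15 after thinning. Thinning also ended the calls of the Lce3 sum within MHCIIlo (2.41), between the Tspan8neg subsets (2.23) and in the interaction (3.15). The Lce1 sum within MHCIIhi was called with DESeq2 (1.16), with no filter (1.18) and in a fit to 4 libraries (1.2).

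Replicate numbers share no stated origin, and same-numbered libraries did not deviate together (correlations 0.00402 to 0.0924 over pairs of subsets, across genes). With the replicate number as a block, the higher and lower calls with Tspan8 were 30 and 1 within MHCIIlo and 21 and 1 within MHCIIhi, those with MHCII were 17 and 4 in Tspan8neg and 4 and 4 in Tspan8pos cells, those of the interaction were 9 and 4, and the Lce1 sum within MHCIIhi was called at 1.22.

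Limits: each subset had 2 libraries, the smallest of which held 1941518 counts, so the Lce genes and other members of few counts lie near the detection floor. Reads of near-identical members cannot be assigned firmly. Subsets were sorted from a mixture, and changes in cell composition and in RNA per cell cannot be told apart.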
